A study of Mus musculus with 6 samples.

Results

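Of the 34298 gene names carried by non-control probes on the arrays, 10 are the S100 calcium-binding proteins described here: *S100a1*, *S100a4*, *S100a6*, *S100a7a*, *S100a8*, *S100a9*, *S100a10*, *S100a11*, *S100a14* and *S100a16*. They were taken by name, and all 13 of their probes, among 55681 in all, were kept. RNA came from mouse organoids, which are epithelial cells grown in 3D from tissue stem cells, and it was hybridized to single-color Agilent expression arrays. There were 3 esophagus and 3 stomach arrays, each of passage 0 organoids and each labelled a control, and the labels number the mice 1, 2 and 4 in both tissues. Culture ran to day 8, or to day 7 for the stomach organoids of mouse 4. The labels give no strain, age or genotype for these mice. Stomach organoids were started from glands of the corpus. Both media contained EGF, noggin and FGF-10. The stomach medium also held WNT3A, R-spondin1 and gastrin and the esophagus medium held forskolin instead, so tissue and medium cannot be told apart. The esophagus arrays of mice 1 and 2 shared a slide with all stomach arrays, and the esophagus array of mouse 4 lay alone on another slide with a scan of its own. Of the probes for 9 squamous genes such as *Krt5* and *Krt14*, 14 of 16 were higher in the esophagus, and all 12 probes for 10 columnar genes such as *Krt8* and *Tff2* were higher in the stomach (limma, adjusted p under 0.05). The exceptions were 1 probe of *Trp63*, which was higher in the stomach, and 1 of *Dsg3*, which did not pass.

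S100 proteins are small calcium sensors built on a pair of EF-hands, loops that hold a calcium ion, and most of them work as dimers. Calcium binding exposes a surface that grips partners such as annexins, myosin or p53 inside the cell, and several S100 proteins also leave the cell, bind metal ions and act on receptors of inflammation. Most of their genes lie side by side within the epidermal differentiation complex, next to genes of the cornified layer of squamous epithelia. *S100a8* and *S100a9*, the subunits of the antimicrobial dimer calprotectin, are known from neutrophils and from squamous epithelium.

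The kinship of the family can be read in the probes themselves. Each probe is a run of 60 bases, and 4 of the 13 member probes, of 4 different genes, hold the stretch TTCNAGGAG, where N is any base. These coding letters close the calcium-binding loop of an EF-hand. The stretch, noticed after the sequences had been viewed, occurs in the printed direction in 0.153% of all 55681 probes, and in each of the 4 it lies in a reading frame without a stop codon. The 4 probes are given because they show what was measured for genes that went in different directions, with the shared stretch in capitals.
S100a1: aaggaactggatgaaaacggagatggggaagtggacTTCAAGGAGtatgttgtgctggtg
S100a4: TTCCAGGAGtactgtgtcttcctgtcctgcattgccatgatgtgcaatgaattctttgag
S100a6: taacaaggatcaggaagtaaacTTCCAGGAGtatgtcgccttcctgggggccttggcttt
S100a8: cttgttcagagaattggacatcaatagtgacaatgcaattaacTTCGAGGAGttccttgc
In mm9, the build of the files, the *S100a1* probe (A_55_P1979645) lies at chr3:90315191-90315250 on the minus strand. The other probes lie on the plus strand, that of *S100a4* (A_55_P1983450) at chr3:90409734-90409793, that of *S100a6* (A_51_P281089) at chr3:90418160-90418219 and that of *S100a8* (A_51_P256827) at chr3:90473778-90473837.

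S100 transcripts differed between the tissues in most members, mainly towards the esophagus. At limma adjusted p under 0.05 over all 55681 probes, 11 of the 13 probes passed, 9 of them higher in esophageal and 2 in stomach organoids. Among all probes, 12.2% passed, 5.94% with the esophagus higher and 6.22% with the stomach higher. All 13 member probes were among the 25859 that every array of at least 1 tissue showed well above background, and of these 26.8% passed when tested alone. *S100a4*, *S100a7a*, *S100a8*, *S100a9*, *S100a10*, *S100a14* and *S100a16* were higher in the esophagus and *S100a1* was higher in the stomach, whereas *S100a6* and *S100a11* did not pass. The median log2 fold change, esophagus minus stomach, was 3.00 over the 13 member probes and 0.02 over all probes. All esophagus arrays lay above all stomach arrays for 9 member probes, against 15.2% of all probes. The reverse held for 2 member probes, against 13.4% of all probes. Values are the authors' log2 values, in which 1 unit is a doubling of brightness, given for mice 1, 2 and 4 in this order, and they compare tissues for 1 probe but not genes with each other. In these bulk samples, fewer cells of a type and less RNA per cell cannot be told apart. For 1 probe, exact permutation of 3 arrays against 3 allows no two-sided p below 0.1.

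**Figure D1:**
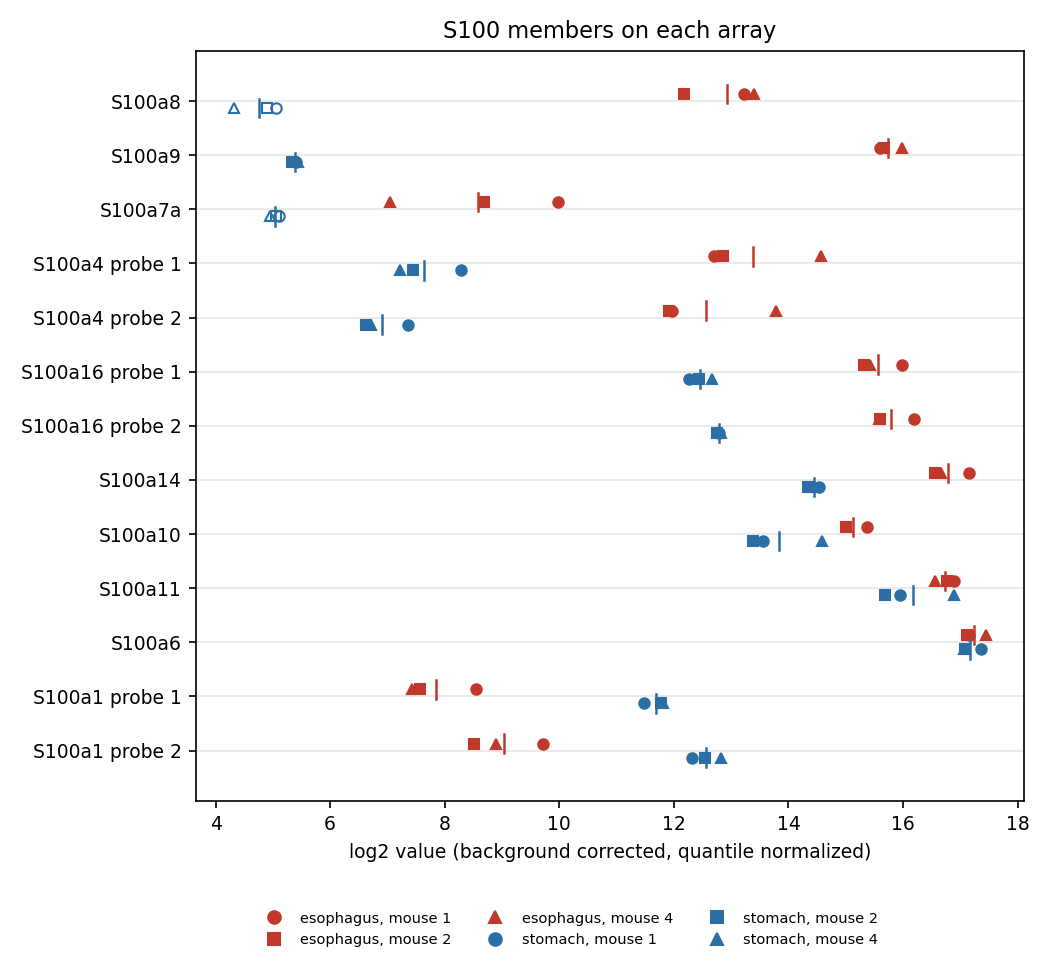
The log2 value (x axis) of each S100 member probe (rows) on every array, esophagus in red and stomach in blue, with mice 1, 2 and 4 as circles, squares and triangles and the tissue mean as a short line. Open symbols mark probes that no array of that tissue showed well above background, which are *S100a7a* and *S100a8* in the stomach. The colors are apart in all rows except *S100a6* and *S100a11*.

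The calprotectin genes showed the widest gap between the tissues among the members. *S100a9* read 15.59, 15.67 and 15.97 in esophageal organoids and 5.40, 5.33 and 5.44 in stomach organoids. All 3 esophagus arrays were bright and close together, and in the stomach 2 of 3 arrays were well above background. The means were 15.74 ± 0.20 and 5.39 ± 0.054 (SD, n = 3 each), which differ by 10.35 with a standard error of 0.16 (limma adjusted p = 3.77e-08). For its partner *S100a8*, the esophagus arrays read 13.22, 12.17 and 13.39 and the stomach arrays 5.05, 4.89 and 4.32. No stomach array was well above background for *S100a8*, so its fold was taken over a background level. In esophageal organoids this fold was estimated at 260 (means 12.93 ± 0.66 and 4.75 ± 0.38, SD, n = 3 each, limma adjusted p = 3.6e-06). The estimate, 8.02 on the log2 scale, carries no sampling error and is not a lower limit. Mouse 2 was the lowest esophagus array for *S100a8* but not for *S100a9*. For *S100a9* the difference within each mouse was 10.19, 10.34 and 10.53. Over 12 distinct alternatives, all of which passed, the log2 fold change ran from 6.93 to 11.44 for *S100a8* and from 9.41 to 11.97 for *S100a9*. Both low ends came with a normexp offset of 50, which lifts dim values, on mean in place of median intensities, and both high ends with the software's background-subtracted signal scaled to the 75th percentile in place of quantile normalization.

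*S100a7a*, the mouse relative of the antimicrobial skin protein psoriasin, was the most variable member on the esophagus arrays. Its esophagus arrays read 9.98, 8.69 and 7.04 and its stomach arrays 5.10, 5.05 and 4.95. The groups did not overlap, but the esophagus of mouse 1 lay far above that of mouse 4. On none of the 3 stomach arrays was *S100a7a* well above background. In esophageal organoids its fold over a background level was estimated at 11.6 (means 8.57 ± 1.47 and 5.04 ± 0.075, SD, n = 3 each, limma adjusted p = 0.00886). The measured difference of 3.54 on the log2 scale rests on single arrays, and was 2.83 without the esophagus array of mouse 1 and 4.30 without that of mouse 4 (limma adjusted p = 0.0062 and 0.000296). With that offset of 50 on mean intensities the call was lost (log2 fold change 2.60, limma adjusted p = 0.0606), and with the background-subtracted signal and 75th percentile scaling, both changed together, the log2 fold change was 6.06. The probe lies at chr3:90461922-90461981 on the plus strand.

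*S100a8* and *S100a9* are abundant in neutrophils and macrophages, so the arrays were read for myeloid genes. Of 22 probes for 14 myeloid genes, 1 was higher in the esophagus, 1 was higher in the stomach and 20 did not pass, and 11 were not well above background on any array. *Ptprc*, the common leukocyte antigen, as well as the granule genes *Ngp* and *Camp*, the macrophage gene *Adgre1* and the Fc receptor gene *Fcgr3* were not well above background on any of the 6 arrays. Others were well above background on all 6 arrays and did not pass, among them *Csf3r* (means 13.61 in the esophagus and 14.53 in the stomach), *Ltf* (11.99 and 12.64), *Ly6g* (9.79 and 10.19), *Elane* (7.77 and 7.98) and 1 of 3 *Csf1r* probes (7.94 and 8.12). The probe higher in the esophagus was that of the chemokine receptor gene *Cxcr2*, which was not above background in the stomach. Its fold over a background level was estimated at 5.004 in the esophagus (7.29 ± 0.18 against 4.97 ± 0.11, SD, n = 3 each, limma adjusted p = 5.33e-05). The probe higher in the stomach was 1 of 3 for *Itgam* (10.72 ± 0.40 against 13.34 ± 0.44, SD, n = 3 each, limma adjusted p = 0.000662), and the other two *Itgam* probes were not well above background on any array. The summed linear level of the myeloid list lay between 22867 and 52906 over the esophagus arrays and between 33181 and 58168 over the stomach arrays, and a few bright probes such as that of *Csf3r* carry it. *Cd68*, a lysosomal gene, did not pass with either probe (limma adjusted p = 0.211 and 0.163). Its brighter probe read 14.77, 12.94 and 11.80 in the esophagus and so ranked the arrays as *S100a7a* did. The squamous gene *Dsg3* did the same with its brightest probe (13.86, 12.30 and 11.35). With only 3 arrays few orders are possible, and *S100a16* probe A_66_P114627 had this order too. The part of *Cd68* or *Dsg3* in the spread of *S100a7a* was not tested. Of 5 probes for dendritic cell genes, both of *H2-Ab1*, an MHC class II gene, were higher in the esophagus (log2 fold changes 3.69 and 3.79, limma adjusted p = 0.000213 and 0.000414). *Cd74*, the invariant chain of MHC class II, gave -0.65 and did not pass (limma adjusted p = 0.344). *Cd207* and *Itgax*, which define Langerhans and dendritic cells, were not well above background on any array. The summed linear level of the dendritic list lay between 7086 and 11214 over the esophagus arrays and between 1184 and 1811 over the stomach arrays. The *H2-Ab1* probes carry most of the esophagus sums, and the part of this list in the members' values was not tested.

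*S100a4*, which binds non-muscle myosin and is linked to cell motility, was higher in esophageal organoids with both of its probes. Probe A_55_P1983448 read 12.71, 12.86 and 14.56 in the esophagus and 8.28, 7.44 and 7.21 in the stomach. The difference was 5.73 on the log2 scale (standard error 0.51, 95% interval 4.56 to 6.90, limma adjusted p = 0.000225), or 53.1-fold. The coding probe printed above read 11.96, 11.92 and 13.78 in the esophagus and 7.35, 6.62 and 6.72 in the stomach, with a difference of 5.66 (standard error 0.49, limma adjusted p = 0.000207). Both probes ranked the mice alike in their differences, 4.43, 5.41 and 7.35 for the first and 4.61, 5.30 and 7.06 for the other. The esophagus of mouse 4, the array on a slide of its own, was the highest for both, and without it the differences were 5.14 and 5.04 (limma adjusted p = 6.9e-05 and 2.23e-05). *S100a4* is also named fibroblast-specific protein. None of 11 probes for fibroblast and smooth muscle genes passed, and 7 of them, including *Pdgfra*, *Lum* and *Thy1*, were not well above background on any array. The summed linear level of that list lay between 300 and 338 over the esophagus arrays and between 336 and 350 over the stomach arrays, a sum made up mostly of probes at background.

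*S100a14* and *S100a16*, epithelial members whose EF-hands bind calcium weakly, were higher in the esophagus on a bright signal in both tissues. *S100a14* (A_51_P419226, chr3:90332439-90332498, plus strand) read 17.15, 16.55 and 16.66 in the esophagus and 14.53, 14.35 and 14.47 in the stomach. The difference was 2.34 on the log2 scale (standard error 0.19, 95% interval 1.90 to 2.78, limma adjusted p = 0.000142), or 5.06-fold. For *S100a16*, probe A_55_P2148912 read 15.98, 15.31 and 15.42 in the esophagus against 12.27, 12.43 and 12.66 in the stomach. Its other probe, A_66_P114627, read 16.19, 15.59 and 15.58 against 12.79, 12.75 and 12.83. The probes gave log2 fold changes of 3.11 and 3.00 (standard errors 0.21 and 0.20, limma adjusted p = 5.67e-05 and 4.28e-05), so they differed from each other by less than their errors. For both genes the esophagus of mouse 1 was the highest array, and every alternative kept the direction and the call, with log2 fold changes of 2.16 to 2.57 for *S100a14* and 2.80 to 3.43 for *S100a16*.

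**Figure D2:**
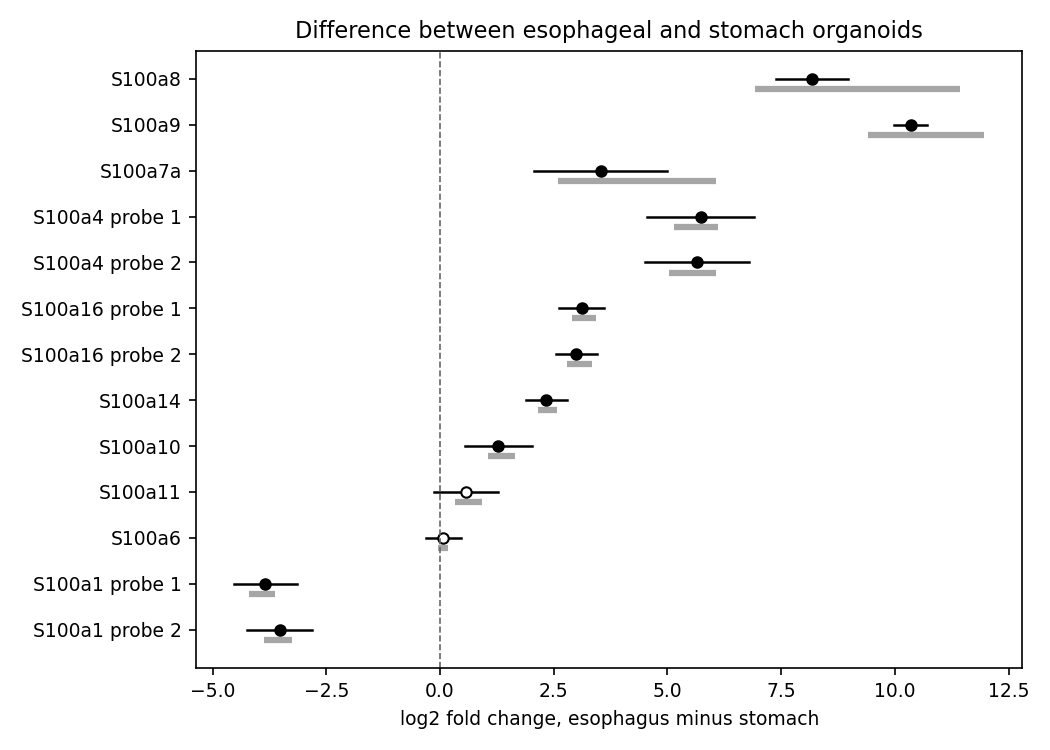
Log2 fold change, esophagus minus stomach (x axis), of each S100 member probe (rows), with points for the estimate, black lines for the limma 95% interval and gray bars for the range over the alternatives. Filled points passed limma adjusted p under 0.05, and the open points *S100a11* and *S100a6* did not. Gray bars are longest for *S100a8*, *S100a7a* and *S100a9*.

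Among the members, *S100a10*, *S100a11* and *S100a6* gave the smallest differences between the tissues. *S100a10*, which forms a tetramer with annexin A2 at the plasma membrane and does not bind calcium, read 15.37, 15.001 and 15.01 in the esophagus and 13.55, 13.39 and 14.59 in the stomach. The groups did not overlap, but the stomach of mouse 4 lay close to the esophagus arrays. The difference of 1.28 on the log2 scale (standard error 0.31, 95% interval 0.56 to 2.01, limma adjusted p = 0.0354), or 2.43-fold, was the weakest call among the members. It was lost in 6 of 12 distinct alternatives, at similar sizes: the difference was 1.25 (limma adjusted p = 0.0711) with an offset of 50 on mean intensities, and 1.06 to 1.35 (limma adjusted p = 0.0632 to 0.145) with any 1 of 5 arrays left out. Leaving out the esophagus array of mouse 4, which gave 0.0632, is the same as comparing the tissues within their shared slide. With the day 7 stomach array of mouse 4 left out, the difference was 1.66 and the limma adjusted p 0.0017.

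*S100a11*, which binds annexin A1 and takes part in keratinocyte growth control, showed the same outlying array. It read 16.89, 16.76 and 16.55 in the esophagus and 15.94, 15.68 and 16.88 in the stomach, where mouse 4 reached the esophagus level. The difference of 0.57 (standard error 0.30, 95% interval -0.14 to 1.27, limma adjusted p = 0.32) did not pass, and within mice it was 0.95, 1.08 and -0.33. Without the stomach array of mouse 4 the difference was 0.92 and passed (limma adjusted p = 0.0191). Harvest day sets that stomach array apart from the others, and its part in these values was not tested. A pseudogene of *S100a11* is annotated in the mouse, so its probe (A_55_P2065991, chr3:93330022-93330081, plus strand) may also read similar transcripts.

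*S100a6*, or calcyclin, which binds annexins and the ubiquitin ligase adaptor encoded by *Cacybp*, was bright in both tissues and gave no detectable difference. It read 17.15, 17.12 and 17.45 in the esophagus and 17.37, 17.08 and 17.07 in the stomach. The groups overlapped, and the mice pointed in different directions, with differences of -0.22, 0.05 and 0.38. The mean difference was 0.07 on the log2 scale (standard error 0.17, limma adjusted p = 0.867), and its 95% interval of -0.32 to 0.45 leaves room for a modest shift either way. Its sign turned without the esophagus array of mouse 4, to -0.04.

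**Figure D3:**
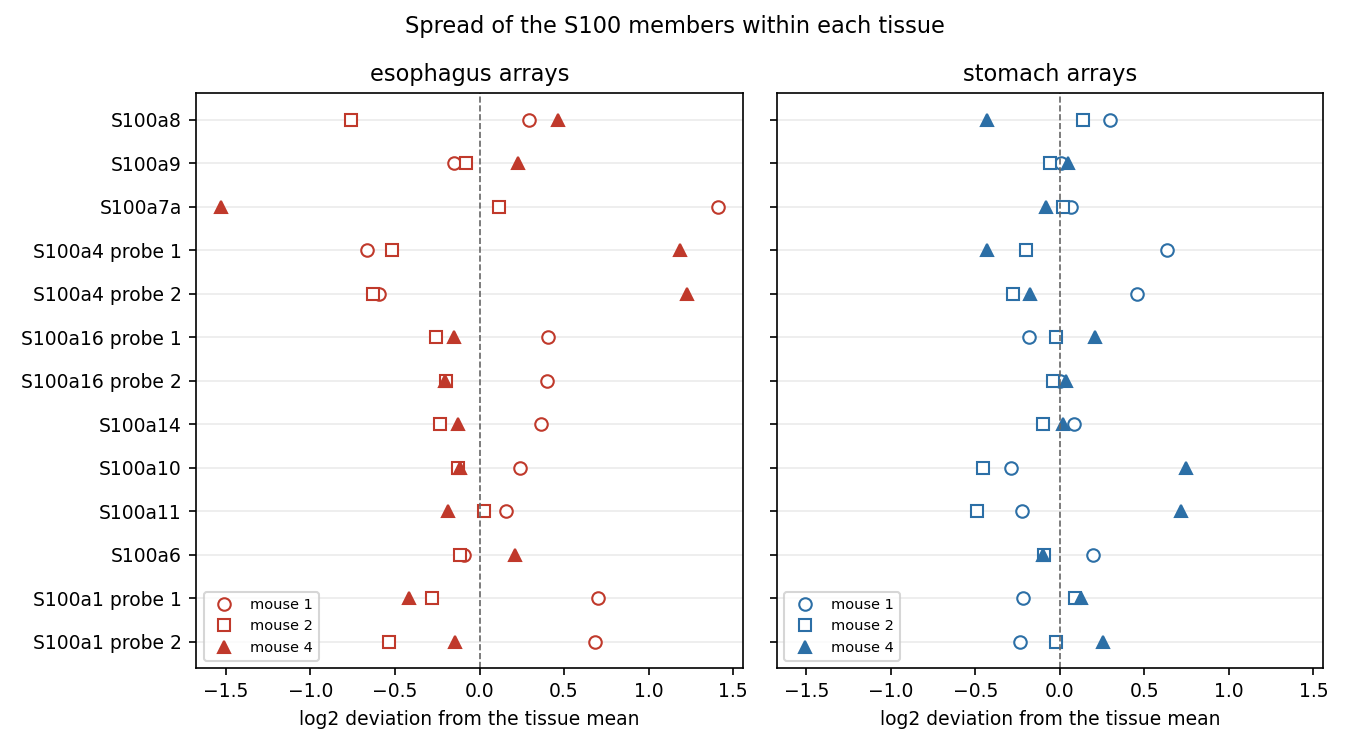
Deviation of each array from its tissue mean, in log2 units (x axis), for each S100 member probe (rows), with esophagus arrays on the left, stomach arrays on the right and mouse 4 filled. In the esophagus, mouse 4 is the highest array for *S100a4* and the lowest for *S100a7a*, and in the stomach it is the highest for *S100a10* and *S100a11*.

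*S100a1*, a regulator of calcium release known best from heart and skeletal muscle, was the only member higher in stomach organoids. The probe printed above read 8.55, 7.57 and 7.43 in the esophagus and 11.48, 11.78 and 11.82 in the stomach. The other probe (A_55_P1979650), nearer the 3′ end of the gene, read 9.72, 8.50 and 8.89 against 12.32, 12.54 and 12.81. All arrays were well above background, and the stomach arrays lay together while the esophagus of mouse 1 stood above the other esophagus arrays. The log2 fold changes were -3.84 and -3.52 (standard errors 0.30 and 0.31, limma adjusted p = 0.000107 and 0.000212), that is 14.3-fold and 11.48-fold higher in the stomach. Over the alternatives they ran from -4.19 to -3.63 and from -3.86 to -3.26.

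Of the 7 probes for 6 other S100 genes, 1 was higher in the esophagus, 3 were higher in the stomach and 3 did not pass. *S100a3*, a hair cuticle protein, was higher in the esophagus (10.06 ± 0.17 against 7.76 ± 0.40, SD, n = 3 each, limma adjusted p = 0.000371). *S100a13*, which takes part in the release of growth factors without a signal peptide, was higher in the stomach (10.32 ± 0.13 against 12.23 ± 0.071, SD, n = 3 each, limma adjusted p = 9.56e-05). *S100g*, the calbindin of calcium-absorbing epithelia, was well above background on none of the 3 esophagus arrays. In the stomach the folds of its probes over a background level were estimated at 22.9 and 27.8 (means 5.40 and 9.91, and 5.45 and 10.25, limma adjusted p = 9.56e-05 and 0.00014). *S100a5* (means 5.68 in the esophagus and 5.72 in the stomach, limma adjusted p = 0.945) and *S100z* (6.52 and 7.33, adjusted p = 0.2) did not pass. Nor did *S100b*, a glial protein (4.96 and 5.36, adjusted p = 0.12), which only 1 stomach array showed well above background. *S100a2*, known from the epidermis and added after the list had been drawn up, was higher in the esophagus (7.75 ± 0.51 against 6.52 ± 0.16, SD, n = 3 each, limma adjusted p = 0.0197).

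Neighbors on the chromosome were then read in their order. In mm9, 8 of the 10 members lie within 182.0 kb of chromosome 3, and *S100a11* and *S100a10* lie 2.83 Mb further on, within 38.5 kb of each other. Read from low to high coordinates, the row opens with *S100a1* and *S100a13*, both higher in the stomach. *S100a14*, *S100a16*, *S100a2*, *S100a3* and *S100a4* follow, all higher in the esophagus. *S100a5* and *S100a6*, neither of which passed, stand next, and *S100a7a*, *S100a8* and *S100a9* close the row, all higher in the esophagus. *S100a1* runs on the minus strand and *S100a13* on the plus strand, and their 300-base start windows in the RefSeq table share 204 bases. This is a description of 1 stretch of 1 chromosome, and no test of position was made.

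**Figure D4:**
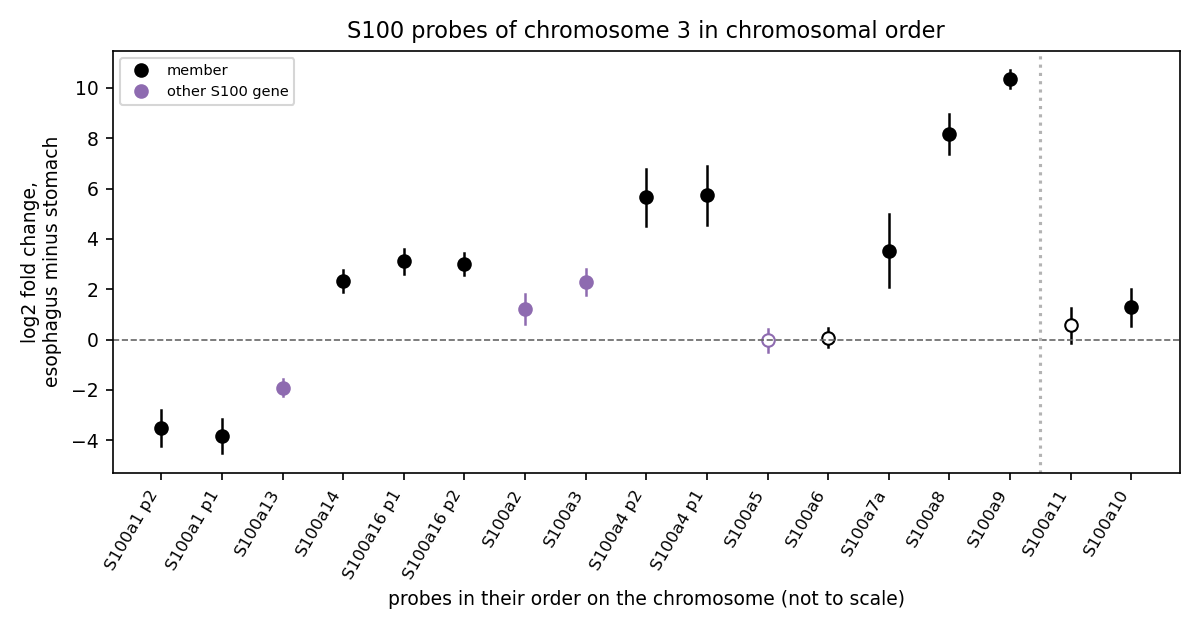
Log2 fold change, esophagus minus stomach (y axis), of the S100 probes of chromosome 3 in their chromosomal order (x axis, not to scale), with limma 95% intervals as lines, members in black and other S100 genes in purple. Open symbols did not pass limma adjusted p under 0.05, and the dotted line marks the gap of 2.83 Mb before *S100a11* and *S100a10*. The first 3 probes, of *S100a1* and *S100a13*, lie below 0, and *S100a8* and *S100a9* reach 8.18 and 10.35. No stomach array showed *S100a8* well above background.

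Promoter sequences from RefSeq (GRCm38.p6), running from 250 bases before to 50 after each start, were held for 8 of the 10 members in 9 windows. *S100a10* and *S100a14* had no entry. The windows were searched on both strands for TATAAA, the core box of the general transcription machinery, for TGANTCA, bound by AP-1, for AACNNGTT, bound by grainyhead factors, and for TGTTTNC, bound by forkhead factors. TATAAA lay in the windows of *S100a4*, *S100a8* and *S100a9*, against 13.6% of all 32851 windows. TGANTCA lay in those of *S100a11* and *S100a16* (7.81% of all windows), AACNNGTT in that of *S100a9* (4.2%) and TGTTTNC in that of *S100a8* (20.5%). The last 60 bases before the start are given for members that were higher, did not pass or were lower in the esophagus, with matches in capitals.
S100a4: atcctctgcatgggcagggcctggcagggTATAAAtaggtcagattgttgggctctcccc
S100a8: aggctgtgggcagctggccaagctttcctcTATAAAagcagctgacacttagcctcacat
S100a11: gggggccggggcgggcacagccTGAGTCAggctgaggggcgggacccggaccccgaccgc
S100a6: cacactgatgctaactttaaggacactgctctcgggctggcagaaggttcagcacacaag
S100a1: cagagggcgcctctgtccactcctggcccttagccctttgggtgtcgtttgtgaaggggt
These lie at chr3:90603710-90603769 (*S100a4*), chr3:90669011-90669070 (*S100a8*), chr3:93520436-93520495 (*S100a11*) and chr3:90612834-90612893 (*S100a6*) on the plus strand, and at chr3:90514331-90514390 (*S100a1*) on the minus strand. TATAAA opens at base -31 in *S100a4* and base -30 in *S100a8*, counted back from the start, and 2.87% of all windows hold it in this direction within these 60 bases. In *S100a9* the match opens at the annotated start itself. No match of these letters lies in the windows of *S100a1*, *S100a6* and *S100a7a*, which says nothing of the factors.

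The partners and receptors of S100 proteins went in both directions. Of 21 probes for 14 such genes, 3 were higher in the esophagus, 5 were higher in the stomach and 13 did not pass, and the median log2 fold change was 0.13. The shares among all probes were 5.94% towards the esophagus and 6.22% towards the stomach. The 3 probes towards the esophagus fell to 1 without stomach replicate 1, without stomach replicate 2 or without esophagus replicate 1. *Anxa2*, the partner of *S100a10*, read 17.49, 17.35 and 17.41 in the esophagus and 17.12, 16.80 and 17.46 in the stomach, a difference of 0.29 that did not pass (limma adjusted p = 0.433). Its stomach array of mouse 4 was the highest stomach array, as for *S100a10* and *S100a11*. *Anxa1*, the partner of *S100a11*, was higher in the esophagus with both probes, by 0.67 and 2.83 on the log2 scale (limma adjusted p = 0.0269 and 0.000349), sizes that disagree. *Anxa11*, which *S100a6* binds, was lower in the esophagus with both probes (-1.57 and -1.14, limma adjusted p = 0.00269 and 0.0143), and so was *Anxa6* (-2.58, limma adjusted p = 0.00154). Of *Ahnak*, the giant scaffold bound by *S100a10*, none of 4 probes passed, with means of 7.77 to 14.79 in the esophagus and 7.55 to 14.54 in the stomach and log2 fold changes of -0.14 to 1.30. *Cacybp*, which binds *S100a6*, and its companion *Sugt1* read 1.02 and 0.62 and fell just short (limma adjusted p = 0.0543 and 0.0538).

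Among the receptors for secreted S100 proteins, *Ager*, which encodes RAGE (esophagus 5.10 ± 0.34, stomach 4.97 ± 0.095, SD, n = 3 each), and *Cd36* were not well above background on any of the 6 arrays. *Tlr4*, a receptor of calprotectin, was measured by 2 probes. On no array was one of them well above background, and the other (A_66_P124806) read 6.99, 6.55 and 7.21 in the esophagus and 8.94, 8.92 and 8.47 in the stomach, a log2 fold change of -1.86 (limma adjusted p = 0.00119). *Bsg*, which encodes basigin, a receptor of *S100a9*, was also higher in the stomach (13.08 ± 0.048 against 15.70 ± 0.24, SD, n = 3 each, limma adjusted p = 3.65e-05). *Trp53*, which encodes the p53 protein bound by *S100a4*, was higher in the esophagus by 1.14 on the log2 scale (limma adjusted p = 0.0379), whereas neither *Mdm2* nor *Myh9*, the myosin partner of *S100a4*, passed with any probe.

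**Figure D5:**
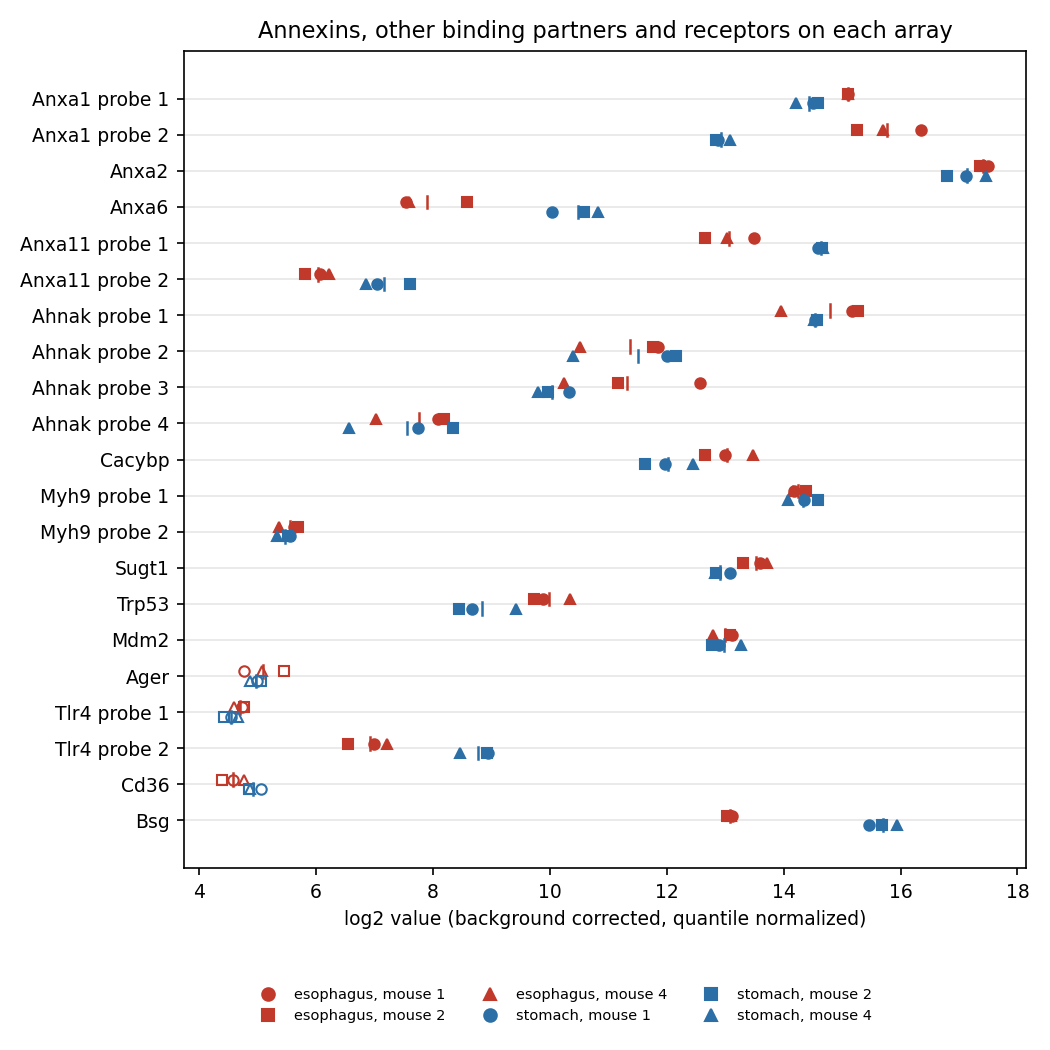
The log2 value (x axis) of each probe for the binding partners and receptors of S100 proteins (rows) on every array, with colors, symbols and mean lines as in the plot of the members. Red and blue are apart with blue higher for *Anxa6*, *Anxa11*, *Bsg* and 1 probe of *Tlr4*, and for *Cd36*, and open symbols mark *Ager*, *Cd36* and the other *Tlr4* probe, which no array showed well above background.

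How far replicates lay apart was read last. The median SD of the 13 member probes was 0.36 on the esophagus arrays and 0.20 on the stomach arrays. For the 21401 probes well above background on all 6 arrays, these medians were 0.29 for the esophagus and 0.24 for the stomach. The esophagus SD was over 1 for *S100a7a* and for both probes of *S100a4* only, and the stomach SD was highest for *S100a10* and *S100a11*, at 0.65 and 0.63.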

How the data were processed

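RNA of 3 esophagus and 3 stomach organoid cultures was labelled with Cy3 and hybridized by the authors, and spots were read with Feature Extraction (version 11.5.1.1). Per the file headers, the deposited scanner files hold raw and background-subtracted intensity and flags for each of 62976 spots. The deposited log2 values had been background corrected and quantile normalized by the authors, and normexp with an offset of 15 on median intensities followed by quantile normalization returned them with a median absolute difference of 0.00433. Their 2029 empty cells are spots marked as outliers. These log2 values were averaged over the spots of a probe and fitted with lmFit and eBayes (limma 3.58.1, R 4.3.3) on all 6 arrays without a block, and p-values were adjusted over 55681 probes with the Benjamini-Hochberg method. The script was tested on simulated data. From 45.5% to 51.1% of spots were well above background, none was saturated, and the number of arrays limits the precision. Folds over a background level set the bright mean against the dim mean. Each dim array was taken at its own value or its lowest well-above-background signal, whichever was higher. These folds are estimates and carry no sampling error.

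The labels give both tissues the mouse numbers 1, 2 and 4, which were taken to pair the arrays. Deviations of arrays of the same number correlated over probes with r = 0.025, 0.0119 and -0.00787. Alternatives were normexp offsets of 16 and 50, both on mean intensities, the background-subtracted signal scaled to the 75th percentile, mouse or slide as a block, trend and robust variances, a filter on dim probes, each array left out, and, for counts, the methods' threshold. Members, lists and rules were chosen with earlier results of these data known. By rule, every member probe is given with values, as are other S100 genes, *Anxa1*, *Anxa2*, *Ahnak*, *Ager* and *Tlr4*. Other listed genes are given as counts, with values for those a sentence turns on. Probe coordinates are those of the files (mm9).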

Additional observations from a re-analysis of the deposited data

How the results depend on the processing

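Comparing the tissues within their shared slide is the same fit as leaving out the esophagus array of mouse 4, and is counted once. Among 156 distinct refits of single member probes, 147 kept their direction and their side of the threshold, 7 lost the call, 1 gained it and 1 turned the direction. The turned value was that of *S100a6*, -0.0354 in that fit. Leaving out 1 array at a time, it ran from -0.0354 to 0.167. With 1 array left out, the count of all probes passing, 6770, ran from 4091 without stomach replicate 1 to 7415 without stomach replicate 4. It was also low, at 4152, without stomach replicate 2, and the cause was not tested. At the methods' threshold it was 10096. The count of member probes, 11, ran from 9 with an offset of 50 on mean intensities to 12 without stomach replicate 4. With the mouse as a replicate block, the same number of member probes, 11, passed, and 6153 of all probes did, and the block changed no call of a single member probe. With the background-subtracted signal and 75th percentile scaling together, the median of all probes was 0.191 and *S100a6*, at 0.14, lay below it, and 1 partner probe was higher in the esophagus in place of 3. Signal over background limits what the stomach values of *S100a7a*, *S100a8* and *S100a9* can show.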
